A study of Mus musculus with 8 samples.

Results

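Genes of cartilage formation and of vascular calcification were examined in the aortas of mice infused with angiotensin II (AngII). They are Runx2, Sox9, Acan, Chad, Comp, Spp1, Alpl, Mgp and Tnfrsf11b, 9 of the 35896 genes in the deposited table, and they were taken by symbol and not by their values. All 9 passed the filter on low counts. In the arterial wall, smooth muscle cells can take on features of cartilage and bone cells. In that state they make transcription factors such as Runx2 and Sox9 and matrix proteins such as aggrecan and osteopontin, while matrix Gla protein, osteoprotegerin and pyrophosphate hold back the deposition of mineral. Osteopontin is also made in large amounts by activated macrophages.

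Each of the 8 libraries held aortic RNA pooled from 2 male C57BL6 mice, and each of the 4 groups had 2 libraries. The mice given AngII received 2.8 mg/kg/day from an osmotic minipump that was implanted at 11 weeks of age and ran for 2 weeks. Their aortas were taken when the infusion ended (AngII), 2 weeks later (AngII+2W) or 3 weeks later (AngII+3W). CTRL libraries came from untreated littermates described as age-matched. The paper states that controls were killed at every time point of the infused groups. Which of these times the CTRL libraries came from is not stated, so a match in age to each infused group cannot be shown. The study asked which AngII-induced changes in the aorta outlast the infusion. The pools are different mice in every group, and the labels name no transgene or mutation.

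Levels are given as CPM (counts per 1000000 counts, scaled by the TMM method). Library totals were between 18130441 and 21498200 counts, so that 3 counts, taken as the floor of detection, equalled between 0.140 and 0.162 CPM. The smooth muscle markers of the aortic wall were detected in every library, with 7 genes summing to between 1706 and 9411 CPM. Of 10 chondrocyte markers, only 3 passed the filter, and Matn1, Snorc and Ucma had at most 2 counts in any library. The summed level of the 10 was between 10.4 and 15.5 CPM, with no gene called in any comparison. The share of mitochondrial counts ranged from 8.15% in AngII replicate 2 to 18.3% in AngII+3W replicate 1, and its part in the levels of the 9 genes was not tested. Libraries also differed in muscle genes of other tissues. Skeletal muscle genes summed to 1536 CPM in AngII+3W replicate 1 and to at most 74.2 CPM in the others. Cardiac muscle genes summed to 5069 and 2238 CPM in CTRL, against 1369 and 881 at the end of infusion, 236 and 82.2 at AngII+2W and 5798 and 454 at AngII+3W, with 0 of the 6 called in any comparison, and their part in the levels of the 9 genes was not tested. Differences were tested with edgeR's quasi-likelihood test over all 17182 genes that passed the filter, with Benjamini-Hochberg adjustment (FDR), and a gene was called at an FDR below 0.05. Groups of 2 libraries allow no exact permutation p under 0.33, so none was computed. In bulk tissue, fewer cells of a type and less RNA per cell cannot be told apart.

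At the end of the infusion, Spp1 rose and the other 8 genes did not pass the threshold. Thus 1 of the 9 was called higher and 0 were called lower, while 2.9% of all tested genes were called higher, 2.2% lower and 5.1% in either direction. At an unadjusted p below 0.05, 5 of the 9 were higher (Runx2, Acan, Comp, Spp1 and Tnfrsf11b) and 0 were lower, where 10.9% of all tested genes were higher, 9.29% were lower and 20.2% were either. Both AngII libraries lay above both CTRL libraries in 7 of the 9 genes, a pattern that 24.4% of all tested genes had. Mgp is counted among these 7 although the lower AngII library exceeded the higher CTRL library by less than 1 CPM. The median log2 fold change of the 9 was 0.80, against -0.01 over all tested genes.

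**Figure D1:**
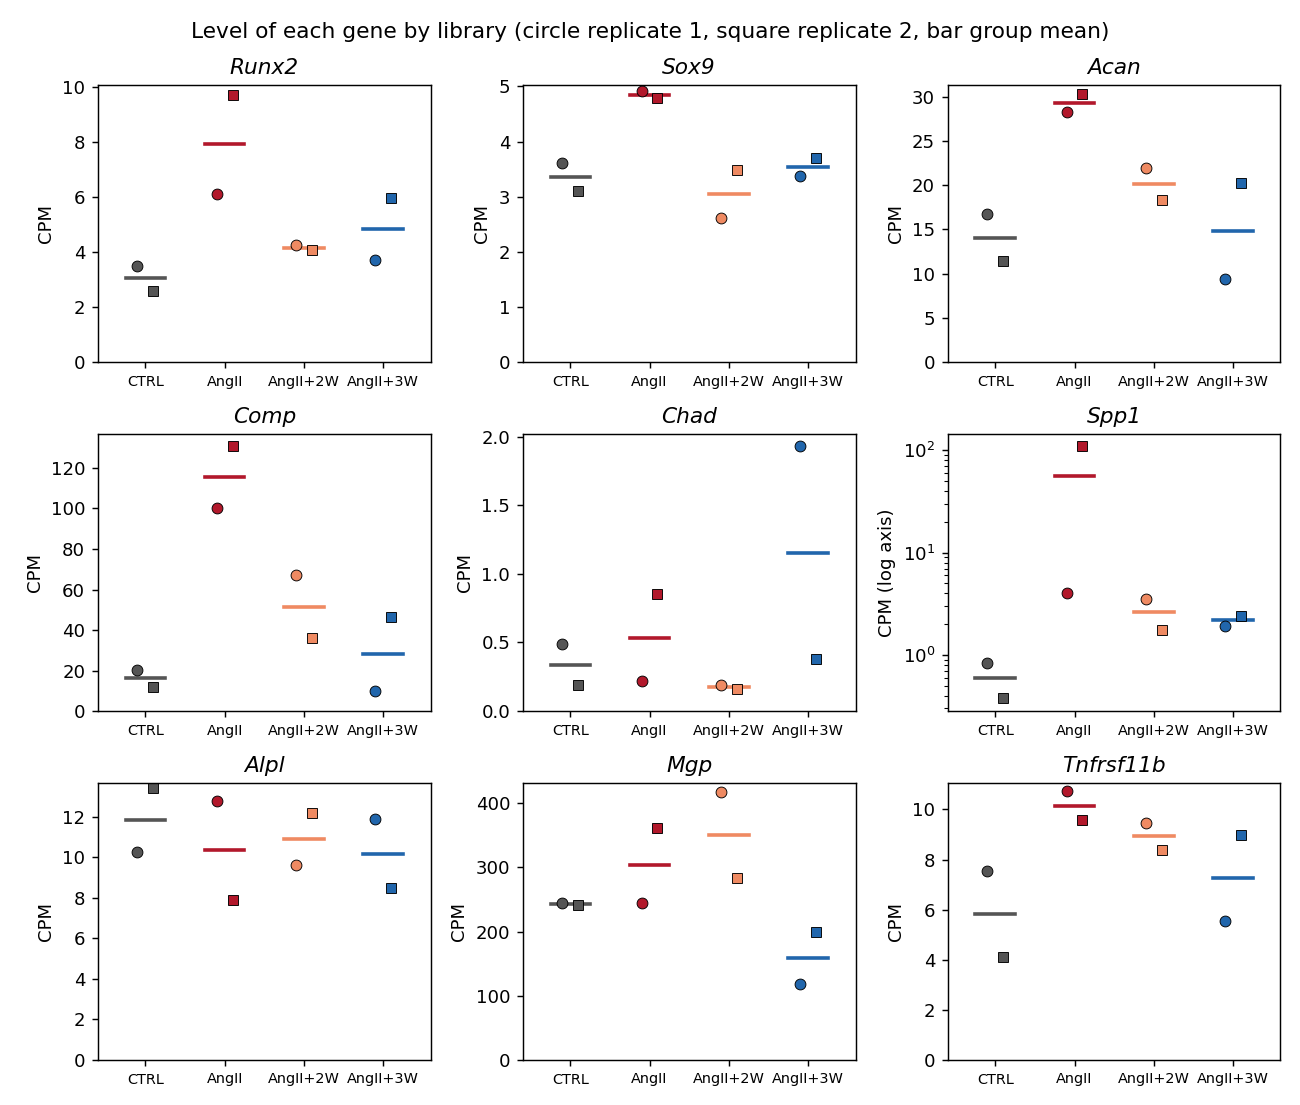
Level of each of the 9 genes in each library, in CPM (log axis for Spp1 only), with circles for replicate 1, squares for replicate 2 and bars for the group mean (n = 2). Runx2, Sox9, Acan, Comp, Spp1 and Tnfrsf11b had both AngII libraries above both CTRL libraries, and Spp1 reached 110 CPM in a single AngII library.

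Runx2 is the transcription factor that directs osteoblast formation and the maturation of cartilage (chromosome 17, 44495987 to 44814797, reverse strand, GRCm38, within the same locus as Supt3). It had 72 and 55 counts in CTRL, against 113 and 205 at the end of infusion, 91 and 76 at AngII+2W and 69 and 111 at AngII+3W. On the CPM scale this was 3.51 and 2.59 CPM in CTRL, against 6.10 and 9.71 at the end of infusion, 4.25 and 4.08 at AngII+2W and 3.70 and 5.96 at AngII+3W. Every library of the 3 infused groups was above both CTRL libraries, and the AngII libraries were above all others. The log2 fold change in AngII was 1.38 (standard error 0.33, FDR = 0.0568), from 3.05 ± 0.65 CPM (SD, n = 2) to 7.90 ± 2.55 CPM. It was 0.45 in AngII+2W (FDR = 0.697) and 0.67 in AngII+3W (FDR = 0.459). Runx2 passed the threshold in AngII when either AngII+3W library was left out of the fit, with FDR values of 0.0294 without replicate 1 and 0.0295 without replicate 2. Without AngII replicate 2 its log2 fold change was 1.00 (FDR = 0.328).

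Sox9 is the transcription factor that commits cells to the cartilage lineage (chromosome 11, 112782224 to 112787760, forward strand). It had 3.60 and 3.10 CPM in CTRL, against 4.91 and 4.78 at the end of infusion, 2.61 and 3.49 at AngII+2W and 3.38 and 3.70 at AngII+3W. The AngII libraries were the highest and close to each other, whereas both later groups overlapped CTRL. Against CTRL, Sox9 had log2 fold changes of 0.53 in AngII (standard error 0.23, FDR = 0.25), -0.14 in AngII+2W (FDR = 0.895) and 0.08 in AngII+3W (FDR = 0.921).

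Among the cartilage matrix genes, Comp had the widest range. It encodes cartilage oligomeric matrix protein, which binds collagens and is also made in tendon and in the vessel wall (chromosome 8, 70373558 to 70382066, forward strand). Comp had 20.3 and 12.0 CPM in CTRL, against 100.3 and 131 at the end of infusion, 67.0 and 35.8 at AngII+2W and 9.98 and 46.5 at AngII+3W. The AngII libraries were the highest, the AngII+2W libraries lay between them and CTRL, and the AngII+3W libraries fell on either side of CTRL. Against CTRL, Comp had a log2 fold change of 2.84 in AngII (standard error 0.66, FDR = 0.0544), 1.67 in AngII+2W (unadjusted p = 0.0328, FDR = 0.407) and 0.81 in AngII+3W (FDR = 0.648). Comp passed the threshold in AngII without AngII+3W replicate 1 (FDR = 0.00543) or replicate 2 (FDR = 0.00526), where 8.48% and 8.35% of all genes were called. Without any other library it did not, with log2 fold changes of 2.50 to 3.26 and FDR values up to 0.24. In AngII+3W, its log2 fold change was 1.52 without replicate 1 and -0.75 without replicate 2, so the direction there depended on a single library.

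Acan encodes aggrecan, the large proteoglycan that gives cartilage its resistance to compression (chromosome 7, 79053483 to 79115099, forward strand). It had 16.7 and 11.4 CPM in CTRL, against 28.2 and 30.3 at the end of infusion, 21.9 and 18.3 at AngII+2W and 9.34 and 20.2 at AngII+3W. As in Comp, the AngII and AngII+2W libraries were above CTRL without overlap and the AngII+3W libraries were not. For Acan the estimate of the log2 fold change was 1.06 for AngII (standard error 0.34, FDR = 0.127), 0.52 in AngII+2W (FDR = 0.647) and 0.07 in AngII+3W (FDR = 0.95). Acan also passed in AngII without AngII+3W replicate 1 (FDR = 0.0214) or replicate 2 (FDR = 0.0208). It did not pass without any other library, with log2 fold changes down to 0.80 (without CTRL replicate 2) and FDR values up to 0.421 (without AngII replicate 2).

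Chad encodes chondroadherin, a leucine-rich repeat protein of cartilage (chromosome 11, 94565047 to 94569127, forward strand). It was near the floor in most libraries, with 10 and 4 counts in CTRL, against 4 and 18 at the end of infusion, 4 and 3 at AngII+2W and 36 and 7 at AngII+3W. It passed the filter only through AngII replicate 2 and AngII+3W replicate 1, and the highest value was in the library with the skeletal muscle signal, whose part in it was not tested. Its log2 fold change stood at 0.68 in AngII (FDR = 0.762), -0.92 in AngII+2W (FDR = 0.838) and 1.76 in AngII+3W (FDR = 0.485), and the last was 0.15 without AngII+3W replicate 1. Chad lies inside Acsf2, which is read from the opposite strand and rose in AngII (log2 fold change 0.99, FDR = 0.0159). The exons of Chad (1680 bases) share 0 bases with those of Acsf2.

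Spp1 encodes osteopontin, a phosphorylated matrix protein and cytokine that binds integrins and CD44 and coats mineral crystals. The gene lies on chromosome 5 (104435118 to 104441050, forward strand). It had 17 and 8 counts in CTRL, against 74 and 2313 at the end of infusion, 75 and 33 at AngII+2W and 36 and 45 at AngII+3W. On the CPM scale the values were 0.828 and 0.376 in CTRL, against 3.99 and 110 at the end of infusion, 3.50 and 1.77 at AngII+2W and 1.93 and 2.42 at AngII+3W. All 6 libraries of infused mice were above both CTRL libraries, and AngII replicate 2 was far above every other library. The difference between the AngII libraries was 27.4-fold, and 13 of the tested genes (0.0757%), Spp1 included, had a difference as large.

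The log2 fold change of Spp1 in AngII was 6.55 (standard error 1.49, FDR = 0.0497), from 0.602 ± 0.319 CPM to 56.8 ± 74.6 CPM. This call stood just inside the threshold and rested on single libraries. Without AngII replicate 2 the log2 fold change was 2.72 (FDR = 0.135). The call was also lost without CTRL replicate 1 (7.21, FDR = 0.206), CTRL replicate 2 (6.08, FDR = 0.222), AngII+2W replicate 1 (6.55, FDR = 0.101) or AngII+2W replicate 2 (6.55, FDR = 0.10). Scaling by DESeq2 size factors (FDR = 0.051) or by library totals alone (FDR = 0.0561) also ended it, with like fold changes. Later the log2 fold change against CTRL was 2.14 at AngII+2W (standard error 1.54, FDR = 0.691), and at AngII+3W it was 1.85 (standard error 1.58, FDR = 0.673).

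The 250 bases before the first of the 2 RefSeq starts of Spp1 are shown because Runx2 is a member of the same group and its family binds the letters TGTGGT, which read ACCACA on the other strand. The window is chr5:104434861-104435110 on the forward strand of GRCm38.p6, it holds 0 bases of annotated Spp1 exons, and capitals mark the match, which begins 128 bases before the start.
Spp1: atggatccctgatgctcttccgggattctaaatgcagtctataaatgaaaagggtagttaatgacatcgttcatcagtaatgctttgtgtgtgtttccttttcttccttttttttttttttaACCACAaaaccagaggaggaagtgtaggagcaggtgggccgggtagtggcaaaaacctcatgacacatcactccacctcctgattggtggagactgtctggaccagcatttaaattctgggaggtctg
Of 32851 RefSeq windows of this length, 14% hold TGTGGT or ACCACA at least once. The RefSeq table held windows for 5 of the 9 genes (Runx2, Acan, Chad, Spp1 and Alpl; 7 windows). The window before the other Spp1 start (chr5:104435942-104436191) had 0 matches. The Runx2 window had 1 match, at 80 bases before the start, but 170 of its 250 bases are annotated as Runx2 exon, and it is not printed. The windows of Acan, Chad and Alpl had 0. A match describes the letters only, and no binding was measured.

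Alpl, the tissue-nonspecific alkaline phosphatase that degrades pyrophosphate and thereby permits mineral to form (chromosome 4, 137741733 to 137796384, reverse strand), had similar levels in the 4 groups. It had 10.3 and 13.4 CPM in CTRL, against 12.8 and 7.91 at the end of infusion, 9.61 and 12.2 at AngII+2W and 11.9 and 8.48 at AngII+3W. All groups overlapped. The log2 fold changes against CTRL were -0.20, -0.12 and -0.22 in AngII, AngII+2W and AngII+3W (standard errors 0.286, 0.285 and 0.286, smallest FDR = 0.77).

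Mgp encodes matrix Gla protein, an inhibitor of calcification that depends on vitamin K and is made by smooth muscle and other cells of the artery (chromosome 6, 136872435 to 136875823, reverse strand). It had 244 and 242 CPM in CTRL, against 244 and 362 at the end of infusion, 417 and 283 at AngII+2W and 118 and 200.0 at AngII+3W. The AngII+2W libraries were above CTRL and the AngII+3W libraries were below it, while the AngII libraries began at the CTRL level. Against CTRL, Mgp differed by a log2 fold change of 0.32 in AngII (standard error 0.30, FDR = 0.626), 0.53 in AngII+2W (FDR = 0.597) and -0.61 in AngII+3W (unadjusted p = 0.0812, FDR = 0.464).

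Tnfrsf11b encodes osteoprotegerin, the soluble decoy receptor that keeps RANKL from its receptor RANK (chromosome 15, 54250619 to 54278484, reverse strand). It had 7.55 and 4.09 CPM in CTRL, against 10.7 and 9.57 at the end of infusion, 9.47 and 8.37 at AngII+2W and 5.53 and 8.97 at AngII+3W. The AngII and AngII+2W libraries were above CTRL, and those of AngII+3W overlapped it. For Tnfrsf11b the log2 fold change reached 0.80 in AngII (standard error 0.33, unadjusted p = 0.0408, FDR = 0.224), 0.62 in AngII+2W (FDR = 0.566) and 0.32 in AngII+3W (FDR = 0.737).

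**Figure D2:**
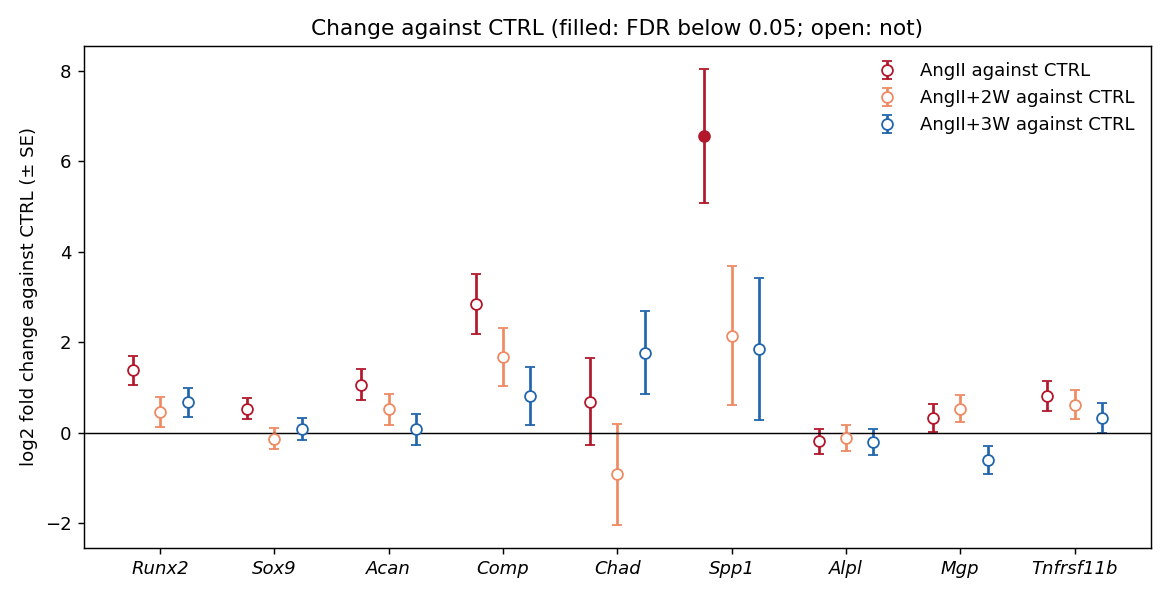
Log2 fold change of each gene against CTRL with its standard error, for AngII, AngII+2W and AngII+3W (2 libraries each), filled where the FDR was below 0.05. Only the AngII point of Spp1, at 6.55, is filled, and its standard error of 1.49 is among the widest.

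Per kilobase of the longest coding transcript, the CTRL aorta expressed Mgp far above the other 8 genes, at 394 ± 2.37 CPM per kb. Comp (6.69 ± 2.42 CPM per kb) and Alpl (4.69 ± 0.876) followed, and their difference was within the spread of the libraries. Tnfrsf11b (2.07 ± 0.868) and Acan (1.91 ± 0.512) did not differ beyond their spread either. Sox9 (0.811 ± 0.0856) was above Runx2 (0.471 ± 0.101) and Spp1 (0.399 ± 0.212), which overlapped each other. Chad had the lowest mean (0.201 ± 0.126), and its libraries overlapped those of Spp1. In AngII the level of Comp per kilobase was 47.8 ± 8.95, and that of Spp1 was 37.7 ± 49.5.

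After the infusion had ended, 0 of the 9 genes were called against CTRL, at either time. In AngII+2W, where 0% of all tested genes were called, 1 of the 9 (Comp) was higher at an unadjusted p below 0.05, as were 4.52% of all tested genes (10.7% in either direction), and DESeq2 called 0 of the 9. Of the 9, 6 were higher without overlap (Runx2, Acan, Comp, Spp1, Mgp and Tnfrsf11b) and 1 was lower (Chad), against 21.7% higher and 22.2% lower over all tested genes. Chad is counted as lower near the floor, with 10 and 4 counts in CTRL against 4 and 3 in AngII+2W. Its 4 counts equalled 0.188 CPM in CTRL replicate 2 and 0.187 CPM in AngII+2W replicate 1. In AngII+3W, where 0.285% of all tested genes were called, 0 of the 9 had an unadjusted p below 0.05 (12.5% of all tested genes had), and DESeq2 called 0. Only Runx2 and Spp1 were higher without overlap, and Mgp was lower (19.8% and 18.3% over all tested genes). The median log2 fold change of the 9 was 0.52 in AngII+2W and 0.32 in AngII+3W, against 0.00 and 0.03 over all tested genes. The 3 comparisons with CTRL share the same 2 CTRL libraries.

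Compared directly with AngII, the later groups had lower values for most of the 9, with 0 called. In AngII+2W, 0.163% of all tested genes were called and 7 of the 9 were lower without overlap, against 27.5% of all tested genes. Chad is among these 7 although it was near the floor, with 4 and 18 counts in AngII against 4 and 3 in AngII+2W. An unadjusted p below 0.05 was reached by Runx2 (log2 fold change -0.93, FDR = 0.231), Sox9 (-0.67, FDR = 0.231) and Spp1 (-4.42, FDR = 0.167), 3 of the 9 where 8.45% of all tested genes were lower and 15% had such a p, and DESeq2 called Spp1 (FDR = 0.0379). In AngII+3W, 1.61% of all tested genes were called and 7 of the 9 were lower without overlap (24.3% of all tested genes). Here Comp (-2.03, FDR = 0.162), Acan (-0.99, FDR = 0.192), Spp1 (-4.70, FDR = 0.125) and Mgp (-0.93, FDR = 0.173) had an unadjusted p below 0.05, 4 of the 9 where 10.4% of all tested genes were lower and 17.8% had such a p, and DESeq2 called Spp1 and Mgp (FDR = 0.0158 and 0.023).

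These differences turned on single libraries. Without AngII replicate 2, the log2 fold change of Spp1 was -0.59 in AngII+2W and -0.88 in AngII+3W against AngII, and without AngII replicate 1 the second was called (-5.68, FDR = 0.0296). Without AngII+3W replicate 2, Acan (-1.69, FDR = 0.0181), Comp (-3.58, FDR = 0.0124) and Mgp (-1.42, FDR = 0.045) were called lower in AngII+3W than in AngII. Against AngII+2W, AngII+3W had 0 of the 9 called (0% of all tested genes), with unadjusted p values below 0.05 for Mgp (-1.14, FDR = 0.391) and Chad (2.68, FDR = 0.494). These were 1 lower and 1 higher of the 9, against 4.22% of all tested genes lower, 4.62% higher and 8.83% either. Chad, the higher one, passed the filter only through AngII replicate 2 and AngII+3W replicate 1 (18 and 36 counts), so its p gives no support. In this comparison DESeq2 called Mgp (FDR = 0.0099). Without AngII+3W replicate 2, Mgp (-1.62, FDR = 0.0482) and Comp (-2.41, FDR = 0.0459) were called there.

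The other genes of these pathways were taken as 4 lists, and 65 of their 81 genes were tested. Of these, 8 (12.3%) were called in AngII, beside 5.1% of all tested genes. At an unadjusted p below 0.05, 13 of the 65 were higher in AngII and 15 were lower (43.1%, against 20.2% of all tested genes). In the chondrogenic list, 15 of 25 genes were tested, 3 rose and 0 fell. Col11a1, a chain of the fibrillar type XI collagen of cartilage, had 1.22 and 0.705 CPM in CTRL and 37.7 and 68.3 in AngII, and rose by a log2 fold change of 5.78 (standard error 0.566, FDR = 0.00571). Cilp, a cartilage matrix protein also made by fibroblasts, had 16.7 and 15.7 CPM in CTRL and 89.0 and 79.5 in AngII (2.38, FDR = 0.0123). Prg4, which encodes the joint lubricant lubricin, had 6.87 and 10.6 CPM in CTRL and 70.2 and 73.2 in AngII (3.03, FDR = 0.0208). The libraries of these 3 genes did not overlap. Col2a1, the main collagen of cartilage, had 1 to 19 counts in a library and was not tested. Of the 10 chondrocyte markers, 3 were at or under the floor in every library and 3 passed the filter. Sox5 and Sox6, the partners of Sox9, had log2 fold changes of -0.49 (FDR = 0.0674) and -0.27 (FDR = 0.484). The median of the 15 was -0.16, against -0.01 over all tested genes.

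In the osteogenic list, 21 of 25 genes were tested, 2 rose and 0 fell in AngII. They were Sparc, which encodes the collagen-binding protein osteonectin (log2 fold change 1.35, FDR = 0.0391), and Col1a1, a chain of type I collagen (3.03, FDR = 0.0322), both abundant in fibroblasts as well as in bone. Sp7, a transcription factor that acts after Runx2 in osteoblasts, had 1 to 6 counts, and Bglap, which encodes osteocalcin, had 0 to 2. The osteogenic ligand Bmp2 had a log2 fold change of -0.35 (FDR = 0.693), and the median of the 21 was -0.16. Of 18 tested genes for mineralization inhibitors and for phosphate or pyrophosphate handling, out of 19, 0 rose and 2 fell in AngII. These were Entpd1, an ectonucleotidase (-1.25, FDR = 0.0228), and Slc20a2, a phosphate transporter (-0.73, FDR = 0.028), and the median of the list was -0.05. Enpp1, which makes pyrophosphate outside the cell, and Ank, which is needed for its release, had log2 fold changes of -0.03 (FDR = 0.974) and -0.11 (FDR = 0.72). Of 11 tested genes for receptors and ligands of osteopontin, osteoprotegerin and RANK, out of 12, 0 rose and 1 fell, the osteopontin receptor chain Itgb3 (-1.34, FDR = 0.0312), with a median of -0.42. Tnfsf11, which encodes RANKL, was not tested and had 0 to 3 counts except in AngII replicate 2, where it had 18.

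Of these 65 tested genes, 0 were called against CTRL in AngII+2W or AngII+3W. At an unadjusted p below 0.05 there were 5 higher and 12 lower genes in AngII+2W (26.2% of the 65, against 10.7% of all tested genes), and 4 higher and 16 lower in AngII+3W (30.8%, against 12.5%). DESeq2 called 5 of the list genes in AngII+2W, where it called 2.17% of all tested genes, and 8 in AngII+3W, where it called 3.42%. Against AngII, Col11a1 fell in AngII+2W (log2 fold change -4.10, FDR = 0.0436), the 1 gene of the 65 called there (1.54%, against 0.163% of all tested genes). In AngII+3W 6 genes fell against AngII (9.23% of the 65, against 1.61% of all tested genes called). They were Col11a1 (-3.59, FDR = 0.025), Cilp (-2.35, FDR = 0.0251), Prg4 (-3.46, FDR = 0.0295), Sparc (-1.80, FDR = 0.0329), Ahsg (-2.36, FDR = 0.0417) and Cd44 (-1.34, FDR = 0.0307). Ahsg encodes the mineral-binding serum protein fetuin-A, and CD44 is a receptor of osteopontin. All of these calls kept their direction when each library was left out in turn. Those in AngII were lost without CTRL replicate 1 or without AngII replicate 2 (0 list genes called in each case), and 17 were called without either AngII+3W library. Of the calls reported in AngII, those of Col11a1 and Entpd1 held without CTRL replicate 2, and only that of Col11a1 held without AngII replicate 1. With either AngII+2W library left out, those of Col11a1, Cilp and Prg4 held. The Col11a1 call in AngII+2W against AngII was lost without any 1 of the CTRL, AngII or AngII+2W libraries. For AngII+3W against AngII, the count was between 0 and 2 without any 1 library other than AngII+3W replicate 2, and 11 without that one.

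**Figure D3:**
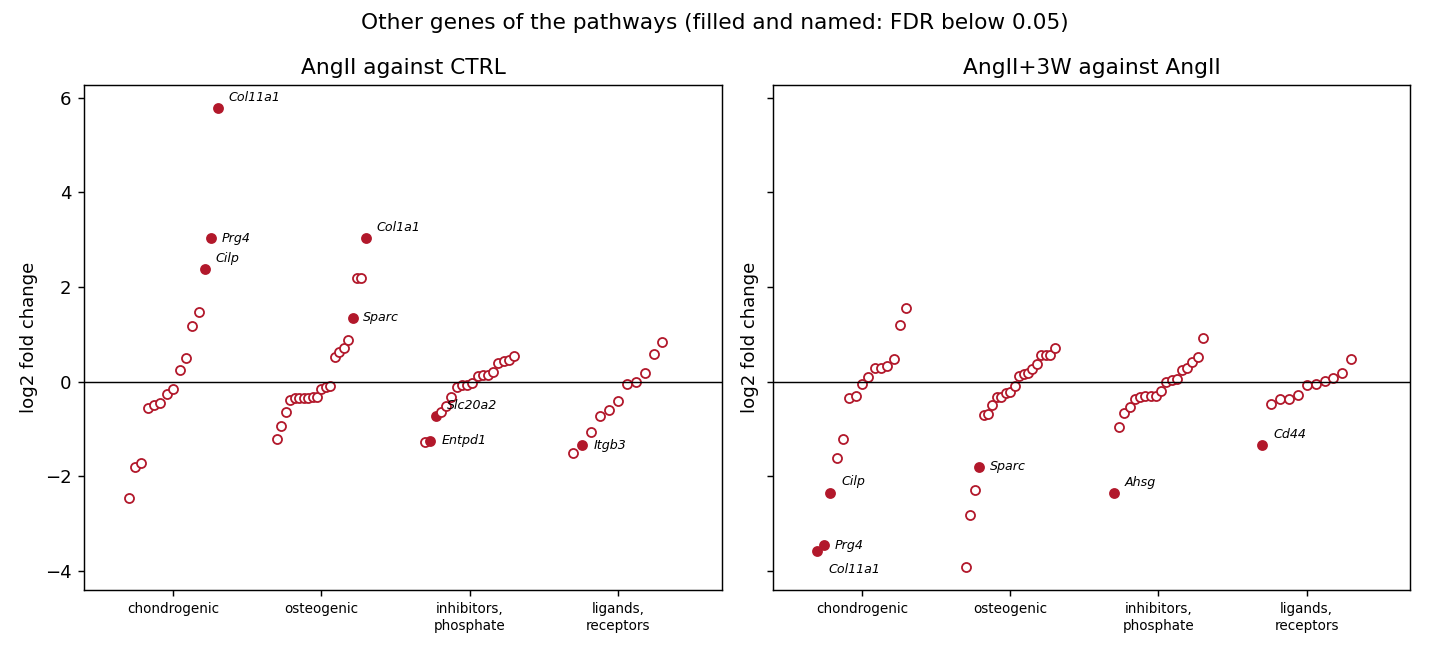
Log2 fold change of every tested gene of the 4 pathway lists in AngII against CTRL (left) and in AngII+3W against AngII (right), filled and named where the FDR was below 0.05. In the left panel 5 filled points are above 0 (Col11a1, Prg4, Cilp, Col1a1 and Sparc) and 3 are below, while all 6 in the right panel are below 0.

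Markers of other cell types moved with several of the 9 genes. The summed level of 11 macrophage markers was 390 and 293 CPM in CTRL, against 756 and 1272 at the end of infusion, 513 and 526 at AngII+2W and 249 and 425 at AngII+3W. In AngII 5 of the 11 rose (Cd68, Adgre1, C1qb, Mrc1 and Itgam) and 0 fell. The calls of C1qb and Mrc1 were lost with library totals alone and with the replicate number as a block. All 11 were higher in AngII replicate 2 than in replicate 1, by 1.20 to 3.60-fold. As a percentage of this sum, Spp1 was 0.212 and 0.128 in CTRL, against 0.528 and 8.61 at the end of infusion, 0.682 and 0.337 at AngII+2W and 0.776 and 0.569 at AngII+3W. Runx2 was 0.90 and 0.882 in CTRL, against 0.807 and 0.763 at the end of infusion, 0.828 and 0.775 at AngII+2W and 1.49 and 1.40 at AngII+3W. The gap between the AngII libraries was thus wider for Spp1 than for any macrophage marker. Relative to these markers, Runx2 was not higher in AngII than in CTRL, but it was higher in both AngII+3W libraries. Runx2 was set against no other list. The summed fibroblast markers were also higher in AngII than in CTRL, so this percentage singles out no cell type.

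The 7 adventitial fibroblast markers summed to 1205 and 721 CPM in CTRL, against 2123 and 2939 at the end of infusion, 2145 and 1299 at AngII+2W and 792 and 1613 at AngII+3W, and 1 of them (Lum) rose in AngII. The order of the libraries within each group was that of Comp, but also that of Runx2 and of the summed smooth muscle markers. As a percentage of this sum, Comp was 1.69 and 1.67 in CTRL, against 4.72 and 4.45 at the end of infusion, 3.12 and 2.76 at AngII+2W and 1.26 and 2.88 at AngII+3W. Acan was 1.39 and 1.58 in CTRL, against 1.33 and 1.03 at the end of infusion, 1.02 and 1.41 at AngII+2W and 1.18 and 1.25 at AngII+3W. Mgp was 20.2 and 33.5 in CTRL, against 11.5 and 12.3 at the end of infusion, 19.4 and 21.8 at AngII+2W and 14.8 and 12.4 at AngII+3W. Relative to these markers, every AngII and AngII+2W library exceeded both CTRL libraries for Comp, and the AngII+3W libraries fell on either side. Acan was not higher at the end of infusion than in CTRL. Mgp was lower than in CTRL at the end of infusion and at AngII+3W, while its AngII+2W libraries overlapped CTRL. Percentages of other lists were not computed for these genes. The 5 osteoclast markers summed to 94.4 and 102 CPM in CTRL, against 179 and 179 at the end of infusion, 118 and 103 at AngII+2W and 97.7 and 107 at AngII+3W. Of the 3 that were tested, only 1 was called in AngII, Ctsk, which rose (log2 fold change 2.86, FDR = 0.00778). Calcr had 0 counts in every library. The 7 smooth muscle markers summed to 9411 and 7328 CPM in CTRL, against 1706 and 2154 at the end of infusion, 3906 and 3532 at AngII+2W and 1728 and 3360 at AngII+3W. In AngII 6 of the 7 fell, and in AngII+3W 3 of the 7 fell (Acta2, Tagln and Cnn1). The calls in AngII+3W were lost with library totals alone, with only the 2 groups fitted and with the replicate number as a block. The smooth muscle sum was below CTRL in every library of the infused groups. Mgp was below CTRL in AngII+3W but not in AngII or AngII+2W. Relative to the smooth muscle sum, Mgp was thus higher at the end of infusion than in CTRL, the opposite of its direction against the fibroblast sum. The direction of Mgp relative to markers therefore depended on the list chosen. The part of these cell type markers in the levels of the 9 genes was not tested.

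**Figure D4:**
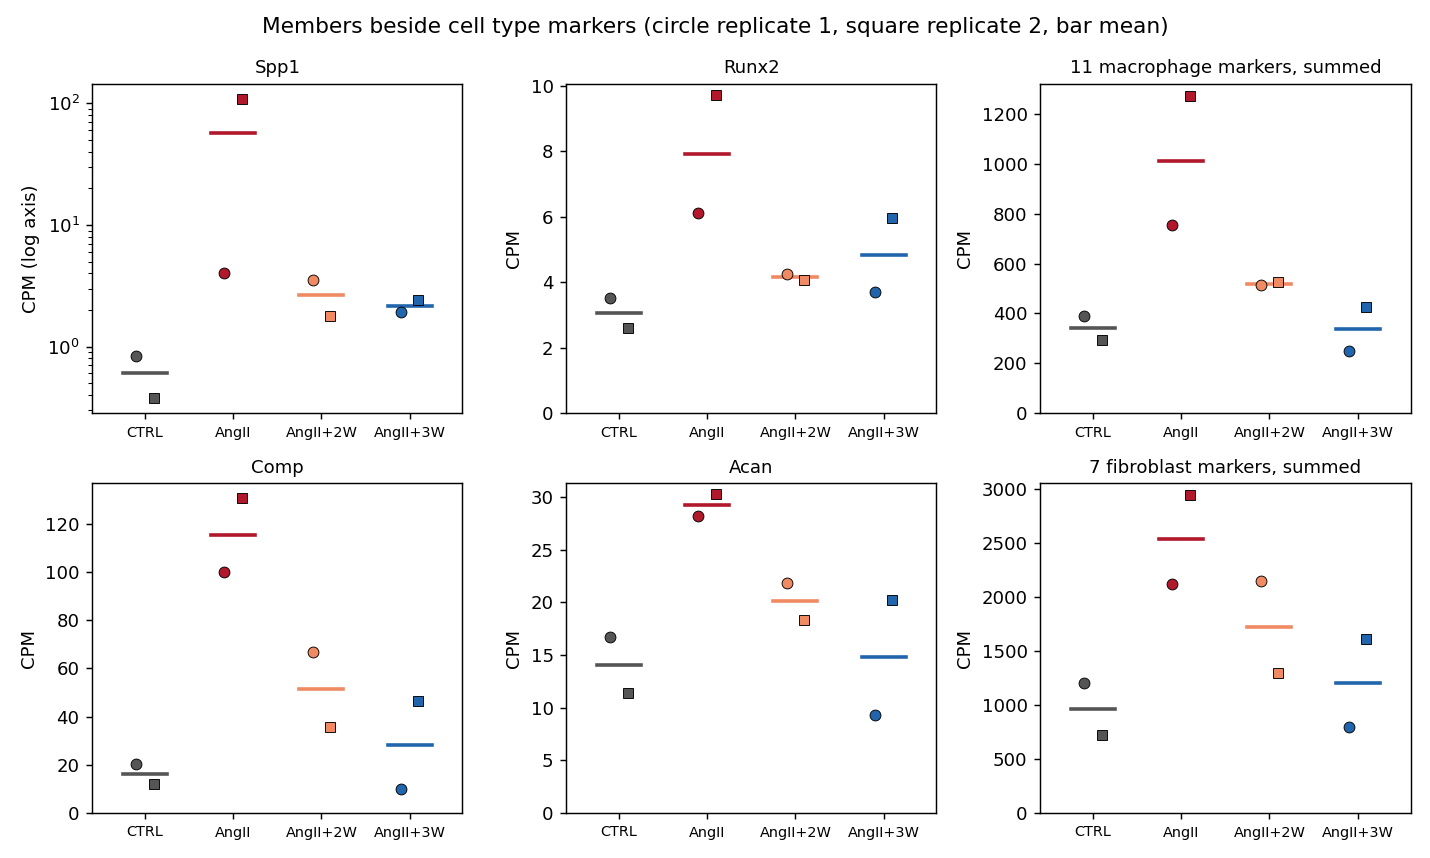
Levels in CPM of Spp1 (log axis), Runx2, Comp and Acan in each library, beside the summed levels of 11 macrophage markers (top right) and 7 adventitial fibroblast markers (bottom right), with circles for replicate 1, squares for replicate 2 and bars for the group mean. The macrophage sum was highest in AngII replicate 2, at 1272 CPM, and the fibroblast sum was also highest there, at 2939 CPM.

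For each of the 9 genes, the 2 other tested genes with the highest Pearson correlation of log2 CPM over the 8 libraries were listed as a description. Runx2 was closest to P2ry13 (0.997) and Ms4a14 (0.988), both expressed in macrophages. Comp was closest to Slit2 (0.993) and Cpxm1 (0.992), and Acan to Fmod (0.985), a small proteoglycan of tendon and cartilage, and Frzb (0.983), a secreted antagonist of Wnt. Spp1 was closest to Ifi209 (0.977) and Pik3r5 (0.976), Sox9 to Gm21742 (0.979) and Gpr162 (0.969), and Tnfrsf11b to Adam5 (0.964) and C1qtnf7 (0.964). Mgp was closest to Gm2253 (0.968) and Gm3617 (0.95), Chad to Cenpa (0.97) and Tacr1 (0.967), and Alpl to Pzp (0.951) and Uqcrh (0.943). Several of these neighbours had few counts in a library, with 0 to 13 for Gm3617, 4 to 19 for Gm21742, 3 to 21 for Gpr162, 8 to 20 for Gm2253 and 2 to 28 for Tacr1. The correlations of Spp1 include AngII replicate 2, where it was far above every other library. The points of each correlation share their libraries, group differences and depth, and the highest over all tested genes is high by selection.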

How the data were processed

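RNA-sequencing of aorta was analysed for 8 libraries of 2 pooled mice each (16 mice), grouped by their labels. The authors depleted ribosomal RNA, ran the ARMOR workflow with Salmon on Ensembl GRCm38 transcripts, and used tximeta to add transcripts up per gene. The deposited table holds the resulting expected counts per gene, as whole numbers without normalization.

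The counts were tested in R 4.3.3 with edgeR 4.0.16. Low counts were removed with filterByExpr (minimum count 10, 17182 genes kept), libraries were normalized by TMM, and all 8 were fitted together with 1 coefficient per group by the older quasi-likelihood form (4 residual degrees of freedom). The test is two-sided, with Benjamini-Hochberg adjustment over all tested genes (FDR, threshold 0.05), for 6 comparisons. Standard errors are the log2 fold change divided by the square root of F. Nothing says that the libraries of a group were prepared on separate occasions, and p-values measure the spread between them. Correlations used log2 CPM with a prior count of 2. Gene positions and lengths came from a GRCm38 annotation, and promoter windows (250 bases) from RefSeq (GRCm38.p6). The table has 0 columns of other samples.

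The 9 genes, the pathway and marker lists and the tests were chosen with earlier results of these data known. Named are the 9 genes, every called list gene and at least 2 list genes that were not called, markers that move with a member, and the 2 most correlated genes per member. Acsf2 was named after its position and values were seen. The alternatives were DESeq2 size factors, library totals alone, every gene with at least 1 count, DESeq2 1.42.0, the newer quasi-likelihood fit, only the 2 groups compared, the replicate number as a block, and each library left out in turn. For the pathway lists these were added after the data were seen. The test code was run on simulated counts with known changes. These had the same dispersion in every gene, and only genes above a limit on mean counts were changed. They do not show how the test performs at the spread of these libraries. Replicates of a group differed by more than counting noise in every group.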

Additional observations from a re-analysis of the deposited data

Results flagged for a closer look

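Mgp was singled out because its direction against CTRL differed between the infused groups. Both AngII libraries (244 and 362 CPM) and both AngII+2W libraries (417 and 283 CPM) were above the CTRL libraries (244 and 242 CPM), and both AngII+3W libraries (118 and 200.0 CPM) were below them. Compared directly with edgeR's quasi-likelihood test and Benjamini-Hochberg adjustment, the log2 fold change of AngII+3W was -0.93 against AngII (unadjusted p = 0.0167, FDR = 0.173) and -1.14 against AngII+2W (unadjusted p = 0.00642, FDR = 0.391). Neither passed the threshold. In the lower of the AngII libraries the distance to CTRL was under 1 CPM, and against CTRL itself none of the 3 groups was called for Mgp.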

How the results depend on the processing

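With 2 libraries per group, calls moved with the setting, and the cause was not tested. The number of the 9 genes called in AngII against CTRL, 1 as reported, was 0 with DESeq2 size factors, 0 with library totals alone, 3 when every gene with at least 1 count was tested (Runx2, Comp and Spp1), 4 with DESeq2, 4 with only the 2 groups fitted, and 0 with the replicate block. Over all genes, 5.1% were called as reported, and 4.84%, 3.62%, 4.63%, 9.27%, 6.93% and 5.06% in these settings. With a library left out the count ranged from 0 to 4. DESeq2 called 1 of the 9 in AngII+2W against AngII, 2 in AngII+3W against AngII and 1 in AngII+3W against AngII+2W (3.99%, 5.52% and 1.26% of all tested genes), and leaving out a library gave 0 to 3 in the second of these and 0 to 2 in the third. No setting called any of the 9 in AngII+2W or AngII+3W against CTRL.

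Of the 81 pathway list genes, 8 were called in AngII against CTRL as reported. The count was 14 with every gene of at least 1 count, 18 with DESeq2, 15 with only the 2 groups fitted and 0 to 17 with a library left out. In AngII+2W against CTRL it was 5 with DESeq2 and 0 to 2 with a library left out. In AngII+3W against CTRL it was 2 with every gene of at least 1 count, 8 with DESeq2 and 0 to 6 with a library left out. In AngII+2W against AngII, where 1 was reported, it was 0 with library totals alone, 2 with every gene of at least 1 count, 7 with DESeq2, 10 with only the 2 groups fitted, 0 with the replicate block and 0 to 3 with a library left out. In AngII+3W against AngII, where 6 were reported, it was 0 with only the 2 groups fitted and 0 to 11 with a library left out. In AngII+3W against AngII+2W it was 2 with DESeq2 and 0 to 3 with a library left out.

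The replicate numbers do not pair the libraries, which came from different mice. The correlation of the replicate differences of 2 groups ranged from -0.0445 to 0.248. With the replicate block, the log2 fold change of Spp1 in AngII was 6.05 (FDR = 0.0884), and the count of called members in that comparison was 0.

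Where a library was left out, the lone sample of its group was assumed to vary like the other groups. Directions turned only in differences that were not called. In AngII against CTRL the log2 fold change then ranged from -0.62 to 1.49 for Chad and from -0.58 to 0.11 for Alpl. In AngII+2W against CTRL it ranged from -0.364 to 0.0481 for Sox9 and from -0.307 to 0.0841 for Alpl. In AngII+3W against CTRL it ranged from -0.0399 to 0.188 for Sox9, -0.64 to 0.52 for Acan, -0.75 to 1.52 for Comp and -0.12 to 0.83 for Tnfrsf11b. In AngII+2W against AngII it ranged from -0.23 to 0.45 for Alpl and -0.11 to 0.52 for Mgp, and in AngII+3W against AngII from -0.52 to 2.36 for Chad and -0.34 to 0.33 for Alpl. In AngII+3W against AngII+2W it ranged from -0.21 to 0.52 for Runx2, -1.15 to 0.00601 for Acan, -0.71 to 0.27 for Spp1, -0.359 to 0.0792 for Alpl and -0.736 to 0.00634 for Tnfrsf11b.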
